A study of Mus musculus with 12 samples.

Results

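The genes that build selectin ligands were followed across 4 cultures of mouse CD8 T cells: Fut7, Fut4, Gcnt1, St3gal4, St3gal6, B4galt1 and Selplg. They were chosen by name as the fucosyl-, sialyl-, galactosyl- and branching transferases of this pathway and the protein scaffold that carries the finished sugar, and they are 7 of 46078 genes in the count tables. CD8 T cells from the spleen of C57BL/6 mice were cultured with interleukins IL-2 and IL-15, which sustain activated CD8 T cells, and RNA was isolated on day 7. All cultures received these 2 cytokines. One group received nothing else (IL-2 + IL-15), one all-trans retinoic acid (RA), one transforming growth factor beta (TGFβ), and one both (TGFβ + RA), with 3 libraries each. No engineered allele is named in the labels, and the age of the mice, agent concentrations and the way the cells were activated are not given in the sources used here. As its aim, the series title gives making CD8 tissue-resident memory cells in culture. The labels call the libraries biological replicates but tie none to an animal, so the p-values cover only the spread among these cultures.

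Selectins are adhesion molecules of vessel walls, platelets and leukocytes that slow passing cells by binding a small sugar, sialyl Lewis X, on their surface. The sugar is assembled in steps. Gcnt1 adds the core 2 branch to O-linked glycans, B4galt1 and related enzymes extend the branch with galactose, St3gal4 and St3gal6 cap the galactose with sialic acid, and Fut7 or Fut4 adds fucose. Selplg encodes PSGL-1, the mucin-like protein that carries much of this sugar on T cells. Fut7 is known as the main fucosyltransferase for E- and P-selectin binding in T cells, and selectin ligands guide T cells into inflamed tissue and skin. Retinoic acid, which gut dendritic cells make from vitamin A, is known to favour gut homing receptors over skin homing ones.

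Each library held 18300206 to 33477037 counts, and all 7 genes passed the filter on low counts that kept 14009 genes. Levels are in CPM, which puts libraries of unequal size on one scale, with TMM correction for their composition. The 5 markers of CD8 T cells (Cd3d, Cd3e, Cd8a, Cd8b1 and Trac) were present in every group, with a summed level of 3142 to 3853 CPM in the 6 libraries without TGFβ and 5636 to 6312 CPM in the 6 with it. Most of that difference lay in Cd8a, with 858 to 1300 CPM without TGFβ and 2415 to 3145 with it, and in Cd8b1. Cd8b1 had 687 to 1048 and 1204 to 1718 CPM in the same order. Trac had 512 to 593 and 531 to 601 CPM, and Cd3d 446 to 499 and 506 to 565. Cd3e had 392 to 541 and 538 to 798 CPM. Within each group the libraries varied beyond sampling noise. A chi-square of their counts, divided by its degrees of freedom, was 21.3 and 24.8 for RA replicate 3 against its partners, 9.78 and 13.4 for IL-2 + IL-15 replicate 1 and 3.93 to 8.18 for the other pairs. TGFβ + RA replicate 3 held transcripts of neutrophils and related cells, with 97 counts of S100a8, 177 of S100a9 and 323 of Lyz2, against at most 0, 1 and 23 in any other library. These 3 libraries are called the 3 doubtful libraries below. Over the whole list of 8 neutrophil and monocyte markers the summed level was 38.4 to 49.1 CPM without added agents, 11.2 to 25.7 with RA, 7.41 to 11.8 with TGFβ and 3.33 to 27.0 with both. Most of the level in the first 3 groups came from Itgam, an integrin chain that activated T cells also express, at 38.3 to 48.9 CPM, 10.8 to 25.4 CPM and 7.13 to 11.7 CPM. Fewer cells of one kind and less RNA per cell cannot be told apart in such bulk samples. The summed level of 5 dendritic cell markers was 92.5 to 155 CPM without added agents, 216 to 370 with RA, 28.5 to 29.5 with TGFβ and 55.0 to 67.6 with both, and Itgax, which activated CD8 T cells can express, held 91.5 to 154 CPM of it without added agents and 215 to 369 with RA. Zbtb46 went another way, with 9.04 to 11.4 CPM with TGFβ and 0.455 to 1.33 in every other library, while Siglech was at 0 counts in all 12 and Clec9a and Flt3 at 0.247 CPM or below. The 3 CD4 T cell markers summed to 66.8 to 74.6 CPM without added agents, 73.0 to 90.9 with RA, 29.2 to 35.3 with TGFβ and 26.1 to 31.8 with both, mostly Zbtb7b, and Cd4 itself was at 3.19 CPM or below. The 5 NK cell markers, which activated CD8 T cells share in part, summed to 645 to 815, 643 to 947, 481 to 567 and 506 to 555 CPM in the same order. Most of each sum was Nkg7, at 532 to 630, 552 to 758, 450 to 525 and 480 to 520 CPM. Eomes had 104 to 166, 70.7 to 128, 31.0 to 40.1 and 21.0 to 34.5 CPM. Klrb1c had 7.37 to 16.9, 16.9 to 53.0, 0.247 to 1.42 and 0.688 to 1.10 CPM. Tyrobp had 0.936 to 1.84, 3.47 to 7.96, 0.493 to 0.881 and 1.06 to 1.88 CPM, and Ncr1 was at 0.526 CPM or below throughout. The 5 B cell markers summed to 12.8 to 16.3, 16.0 to 18.3, 27.8 to 30.4 and 21.8 to 25.9 CPM, nearly all Cd79b, with Ms4a1 and Pax5 at 0.0400 CPM or below. The 7 erythroid, platelet and stromal markers summed to 92.9 to 106, 78.5 to 95.5, 72.4 to 80.4 and 65.2 to 76.3 CPM, mostly Pecam1, and Pf4 had at most 0.476 CPM without TGFβ and 2.51 to 14.0 with it. The part of such cells in the results was not tested.

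The stretch of DNA just before a gene's start is shown for 3 members chosen after their values were seen: Fut7, with the lowest fold change of the 7 for RA, Gcnt1, with the highest for TGFβ, and St3gal6, with the highest for RA without TGFβ. Each is the 250 bases before the first start listed in RefSeq on GRCm38.p6, 5′ to 3′ on the gene's strand, and none of these bases lies in an annotated exon. They are chr2:25422992-25423241 on the plus strand for Fut7, chr19:17372845-17373094 on the minus strand for Gcnt1 and chr16:58524254-58524503 on the minus strand for St3gal6. Capitals mark AGATAA or its reverse complement, a form of the letters bound by GATA factors. Other forms were not searched and are not marked.
Fut7: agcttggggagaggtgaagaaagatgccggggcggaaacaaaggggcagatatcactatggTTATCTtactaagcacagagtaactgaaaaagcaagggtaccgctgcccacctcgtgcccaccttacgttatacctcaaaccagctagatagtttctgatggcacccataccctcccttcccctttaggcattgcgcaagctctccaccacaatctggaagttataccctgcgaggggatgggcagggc
Gcnt1: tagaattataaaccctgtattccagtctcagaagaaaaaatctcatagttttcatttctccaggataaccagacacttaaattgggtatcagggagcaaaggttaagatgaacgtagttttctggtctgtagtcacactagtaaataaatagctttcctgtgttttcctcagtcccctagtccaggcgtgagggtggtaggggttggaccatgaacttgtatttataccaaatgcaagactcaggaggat
St3gal6: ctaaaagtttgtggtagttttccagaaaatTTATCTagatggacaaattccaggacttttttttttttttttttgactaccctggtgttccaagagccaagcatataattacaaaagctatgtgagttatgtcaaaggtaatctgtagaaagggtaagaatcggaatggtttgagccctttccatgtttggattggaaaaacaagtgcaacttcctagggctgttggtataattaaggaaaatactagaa
The marked letters occur in the windows of Fut7 and St3gal6, at 189 to 184 and 220 to 215 bases before the start, and not in the window of Gcnt1. Of 32851 such windows of mouse genes 9.99% hold AGATAA on either strand. RefSeq windows were found for 6 of the 7 members, 10 in all, since some genes have several starts. Of these 10 windows 2 held AGATAA, the marked ones of Fut7 and St3gal6. None of the 10 held AGGTCA, a form of the half-site of retinoic acid receptors (14.0% of all windows), or its direct repeat with a spacer of 5 bases (0.00913%). Nor did any hold the T-box letters GGTGTGA (3.33%) or GTCTAGAC, a form of the SMAD box (0.167%). Each was searched on both strands in these exact letters only, so other forms of these sites may be present. A match or its absence in so short a window is a description of the sequence alone.

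The 7 genes differed widely in level. Levels per length are given as TPM, a share of the library's transcripts computed from the counts and the merged length of a gene's annotated exons. Transcripts in use can be shorter, and their lengths are not known here. Selplg stood at 791 ± 30.2 TPM (SD, n = 3) in IL-2 + IL-15, above 98.9% of tested genes. B4galt1 followed at 176 ± 10.5 TPM, St3gal4 at 103 ± 14.5, Fut7 at 43.9 ± 3.37 and St3gal6 at 21.3 ± 3.38. Fut4, at 8.13 ± 1.80 TPM, and Gcnt1, at 2.24 ± 0.167, were the lowest and lay above 33.6% and 17.9% of tested genes. In cultures to which neither RA nor TGFβ was added the scaffold was thus the most abundant of the 7 transcripts and Gcnt1 the scarcest. With both agents the order changed at its low end: Fut7 was at 0.490 ± 0.0416 TPM, above 6.58% of tested genes, and Gcnt1 at 14.6 ± 1.59, above 44.3%.

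**Figure D1:**
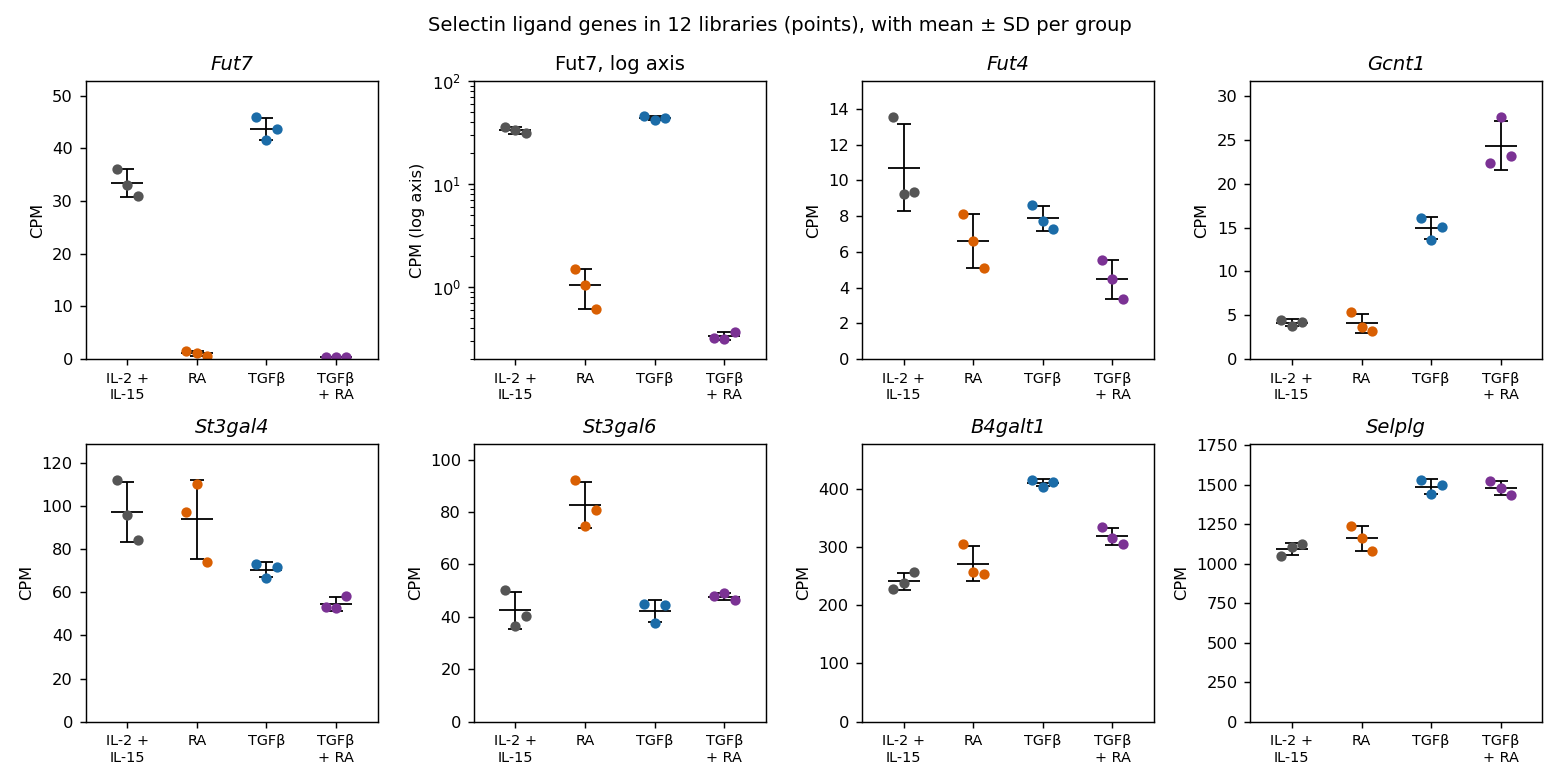
Level of each gene in CPM (vertical axes, from 0 except for the panel of Fut7 with a log axis) in the 4 groups, with 1 point per library and the mean ± SD of 3 in black. Fut7 lies at 31.0 CPM or above in the 6 libraries without RA and at 1.5 CPM or below in the 6 with it, while Gcnt1 is higher in the TGFβ libraries and highest with both agents.

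Each gene was tested in a fit over all 12 libraries with edgeR's quasi-likelihood test, and a gene was called at an adjusted p under 0.05 (Benjamini-Hochberg over all 14009 genes). Of the 7 genes RA called 3 without TGFβ, where 26.7% of all tested genes were called: 1 was higher (12.4% of all genes) and 2 were lower (14.3%). With TGFβ present RA called 5, against 43.0% of all genes, 1 of them higher (20.3%) and 4 lower (22.7%). TGFβ called 5 without RA, against 43.1%, 4 higher (20.7%) and 1 lower (22.4%). With RA present TGFβ called all 7, against 60.2%, 3 higher (29.4%) and 4 lower (30.8%). Both agents together against IL-2 + IL-15 called 6, against 63.2%, 3 higher (30.8%) and 3 lower (32.4%). A difference of any kind among the 4 groups was called for all 7, as for 74.8% of all genes. The median log2 fold change of the 7 was -0.03 for RA and 0.39 for TGFβ against IL-2 + IL-15, where the median of all tested genes was -0.0014 and 0.0012. With the other agent present the median of the 7 was -0.36 for RA (all tested genes 0.0114) and -0.59 for TGFβ (-0.0028). Both agents against IL-2 + IL-15 gave 0.17 (all tested genes 0.0016). The comparisons with IL-2 + IL-15 share those 3 libraries. In each of these comparisons of 2 groups some of the 7 genes were called higher and others lower.

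**Figure D2:**
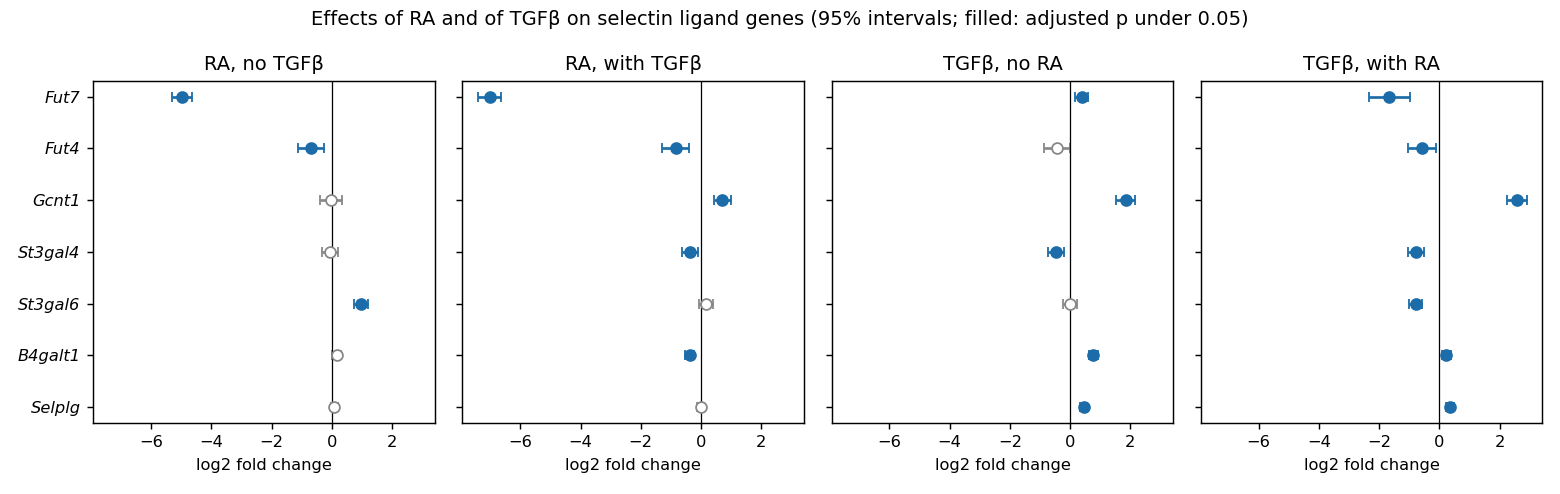
Log2 fold change (horizontal axes) of each gene for RA without and with TGFβ and for TGFβ without and with RA, with 95% intervals from the fit over 12 libraries and filled points where the adjusted p was under 0.05. Fut7 is at -4.97 and -7.02 for RA, while TGFβ is at 0.39 without RA and -1.66 with it.

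Fut7, the fucosyltransferase that completes the sugar, showed the largest change of the 7. It had 36.2, 33.1 and 31.0 CPM in the IL-2 + IL-15 libraries and 1.5, 1.05 and 0.618 CPM in the RA libraries. The TGFβ libraries had 45.9, 41.7 and 43.7 CPM, and those with TGFβ + RA had 0.318, 0.314 and 0.368 CPM. No group overlapped another, in the order TGFβ + RA, RA, IL-2 + IL-15 and TGFβ, and the mean of the highest group was 131 times that of the lowest. RA lowered Fut7 31.3-fold without TGFβ (log2 fold change -4.97 ± 0.15 SE, adjusted p = 8.2e-11, edgeR). It lowered Fut7 129-fold with TGFβ present (-7.02 ± 0.18, adjusted p = 9.0e-12). Counted from the lowest fold change among the 14009 genes, Fut7 ranked 14 for RA without TGFβ and 18 with it.

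TGFβ moved Fut7 in opposite directions depending on RA. Without RA it rose by 0.39 ± 0.10 on the log2 scale (1.31-fold, adjusted p = 0.00701 by edgeR), and with RA it fell by 1.66 ± 0.31 on that scale (3.15-fold, adjusted p = 0.00042). The fall with RA rests on 74 counts in the 3 RA libraries against 26 counts in the 3 TGFβ + RA libraries, so these low levels are known less precisely than the others. Its 95% interval ran from -2.32 to -0.99. Fut7 is ENSMUSG00000036587 on chromosome 2, 25423267 to 25426374 (GRCm38), and none of its 2355 exon bases is shared with another annotated gene.

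Fut4, the other fucosyltransferase able to make Lewis-type sugars, also fell with RA, by a smaller factor. It had 13.5, 9.23 and 9.37 CPM in the IL-2 + IL-15 libraries, 8.10, 6.62 and 5.09 with RA, 8.62, 7.73 and 7.25 with TGFβ, and 5.56, 4.46 and 3.35 with TGFβ + RA. The IL-2 + IL-15 libraries lay above all others, while the levels of RA overlapped those of both TGFβ and TGFβ + RA. With RA Fut4 changed by -0.69 ± 0.20 on the log2 scale (1.62-fold lower, adjusted p = 0.0199 by edgeR) and, with TGFβ present, by -0.84 ± 0.21 (1.79-fold lower, adjusted p = 0.0057). TGFβ gave -0.44 ± 0.20 without RA, which was not called (adjusted p = 0.0845; 0.00788 to 0.355 over the alternatives, called with no filter, with only the 6 samples and, at the lowest of these p, with the replicate number as a block), and -0.59 ± 0.21 with RA (adjusted p = 0.0300), a call whose groups overlap. Both agents together gave -1.28 ± 0.21 (2.43-fold lower, adjusted p = 1.1e-04).

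The smaller Fut4 calls lay close to the threshold, and several settings ended them while the fold change stayed negative. That of RA without TGFβ was lost on leaving out IL-2 + IL-15 replicate 1, the highest library (-0.48, adjusted p = 0.0962 by edgeR), RA replicate 2 (-0.69, 0.0605) or RA replicate 3 (-0.53, 0.0550), in a fit of the 6 libraries alone (-0.68, 0.0503) and without the 3 doubtful libraries (-0.33, adjusted p = 0.106). Over all alternatives its adjusted p was 7.1e-04 to 0.106. That of TGFβ with RA was lost without RA replicate 1 (-0.44, 0.114) or 2 (-0.60, 0.0599), without TGFβ + RA replicate 2 (-0.60, 0.0659) or 3 (-0.42, 0.134), the library with neutrophil transcripts, and in a fit of the 6 libraries alone (-0.57, 0.0559). Over all alternatives its adjusted p was 0.00191 to 0.134. Fut4 is ENSMUSG00000049307 on chromosome 9, 14748320 to 14752393.

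Because both enzymes add the same sugar, their ratio per merged exon length shows which one dominated the pool of transcripts in each library. Fut7 exceeded Fut4 by 4.63, 6.20 and 5.72 times in IL-2 + IL-15 and by 9.22, 9.33 and 10.4 times in TGFβ. With RA the order turned round: Fut7 was at 0.321, 0.275 and 0.210 of the level of Fut4, and with TGFβ + RA at 0.0989, 0.122 and 0.190. The ratio was above 1 in all 6 libraries without RA and below 1 in all 6 with it. It describes transcripts, not enzyme activity.

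**Figure D3:**
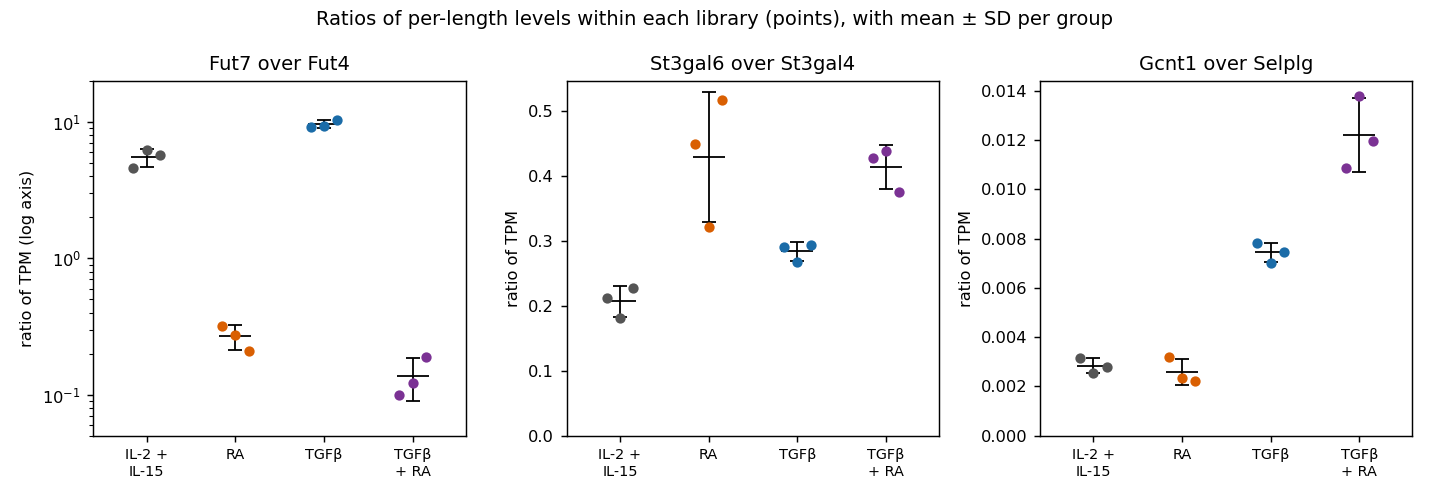
Ratio of TPM (vertical axes, logarithmic for Fut7 over Fut4 and from 0 otherwise) of Fut7 to Fut4, St3gal6 to St3gal4 and Gcnt1 to Selplg in each library, with the mean ± SD of 3 per group. Fut7 over Fut4 is 5.52 ± 0.807 in IL-2 + IL-15 and 0.137 ± 0.0475 in TGFβ + RA.

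Gcnt1, the enzyme that starts the core 2 branch on which the ligand is built, rose with TGFβ. It had 4.47, 3.78 and 4.24 CPM in the IL-2 + IL-15 libraries and 5.32, 3.69 and 3.24 with RA, and these groups overlapped. It had 16.1, 13.6 and 15.1 CPM in TGFβ and 22.3, 27.6 and 23.1 in TGFβ + RA, both above the other groups and apart from each other. TGFβ raised it 3.58-fold without RA (1.84 ± 0.15, adjusted p = 5.7e-07 by edgeR) and 5.98-fold with RA (2.58 ± 0.15, adjusted p = 1.3e-08). RA gave -0.03 ± 0.17 without TGFβ, with a 95% interval of -0.40 to 0.33, and raised Gcnt1 by 0.71 ± 0.13 with TGFβ (1.63-fold, adjusted p = 7.1e-04).

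The group with the least Fut7 transcript, TGFβ + RA, had the most Gcnt1. Relative to Selplg, the scaffold, Gcnt1 went from a ratio of 0.00283 ± 0.000306 per length in IL-2 + IL-15 to 0.00744 ± 0.000405 in TGFβ and 0.0122 ± 0.00149 in TGFβ + RA. Gcnt1 is ENSMUSG00000038843 on chromosome 19, 17326141 to 17372844, with 5760 exon bases that no other annotated gene shares.

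The sialyltransferases, which cap the chain before fucose is added, responded differently from each other. St3gal4 had 112, 95.6 and 84.2 CPM in the IL-2 + IL-15 libraries, 97.1, 110.1 and 73.9 with RA, 73.2, 66.4 and 71.5 with TGFβ, and 52.9, 52.8 and 58.4 with TGFβ + RA. The first 2 groups overlapped, and both lay above TGFβ, which lay above TGFβ + RA. TGFβ changed it by -0.47 ± 0.12 without RA (1.38-fold lower, adjusted p = 0.00812 by edgeR) and by -0.78 ± 0.13 with RA (1.71-fold lower, adjusted p = 1.3e-04). RA gave -0.05 ± 0.12 without TGFβ (95% interval -0.32 to 0.22) and -0.36 ± 0.13 with TGFβ, where the fall was called (adjusted p = 0.0328).

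That last call was lost without TGFβ replicate 1 (-0.33, adjusted p = 0.0955 by edgeR) or 3 (-0.35, 0.08215) and without TGFβ + RA replicate 1 (-0.34, 0.0898) or 2 (-0.33, 0.09805), with 1.3e-04 to 0.09805 over the alternatives. Without the 3 doubtful libraries RA alone was called upward for St3gal4 (0.22, adjusted p = 0.0406 by edgeR, with 0.0406 to 0.888 over the alternatives), the opposite of its sign over 12 libraries. St3gal4 is ENSMUSG00000032038 on chromosome 9, 35046576 to 35119268. Of its exon bases 14.1% are also annotated on the opposite strand, in 4930581F22Rik, which had 30.6 to 33.9 CPM without added agents, 12.7 to 34.9 with RA, 34.5 to 50.7 with TGFβ and 42.1 to 48.3 with both. The libraries were made with a stranded kit, but the strand setting of the counting is not given in the sources used here, so reads of the shared bases cannot be told apart.

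St3gal6 rose with RA where TGFβ was absent. It had 50.3, 36.6 and 40.4 CPM in the IL-2 + IL-15 libraries and 92.2, 74.7 and 80.8 with RA, all 3 above every other library. It had 45.1, 37.5 and 44.5 CPM in TGFβ and 47.8, 48.9 and 46.3 in TGFβ + RA, and the IL-2 + IL-15 libraries overlapped both, which did not overlap each other. RA raised it 1.94-fold without TGFβ (0.96 ± 0.11, adjusted p = 2.3e-05 by edgeR), and with TGFβ gave 0.17 ± 0.11 (95% interval -0.07 to 0.40, adjusted p = 0.233). TGFβ gave -0.0020 ± 0.11 without RA (95% interval -0.24 to 0.23) and -0.79 ± 0.11 with RA (1.73-fold lower, adjusted p = 2.8e-05).

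Both agents against IL-2 + IL-15 gave 0.17 ± 0.11 for St3gal6 (adjusted p = 0.195), which was called without the 3 doubtful libraries (0.32, adjusted p = 0.0173) and without IL-2 + IL-15 replicate 1 alone (0.30, adjusted p = 0.0161 by edgeR, with 0.0161 to 0.615 over the alternatives). St3gal6 is ENSMUSG00000022747 on chromosome 16, 58468125 to 58524243. Of its exon bases 26.0% are also annotated on the opposite strand, in Dcbld2, which had 0.552 to 5.69 CPM over the 12 libraries. Per length, St3gal6 stood at 0.213, 0.181 and 0.227 of the level of St3gal4 in IL-2 + IL-15 and at 0.450, 0.321 and 0.518 in RA. It stood at 0.292, 0.268 and 0.295 in TGFβ and at 0.428, 0.439 and 0.375 in TGFβ + RA. The 6 libraries with RA all had a higher ratio than the 6 without it, and per length St3gal4 was the more abundant in all 12. That order depends on the merged exon lengths, 6172 bases for St3gal6 and 2923 for St3gal4. By CPM, RA replicate 3 had more St3gal6 (80.8) than St3gal4 (73.9).

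B4galt1, a galactosyltransferase that also acts on many other glycans, rose with TGFβ. It had 228, 238 and 257 CPM in the IL-2 + IL-15 libraries, 306, 256 and 253 with RA, 415, 403 and 411 with TGFβ, and 334, 315 and 306 with TGFβ + RA. IL-2 + IL-15 and RA overlapped, and TGFβ lay above TGFβ + RA and above both of them. TGFβ raised it 1.70-fold without RA (0.77 ± 0.07, adjusted p = 1.5e-06 by edgeR) and 1.17-fold with RA (0.23 ± 0.07, adjusted p = 0.0122). RA gave 0.17 ± 0.07 without TGFβ (adjusted p = 0.0919) and -0.37 ± 0.07 with TGFβ (1.29-fold lower, adjusted p = 8.2e-04).

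The call of TGFβ with RA was lost for B4galt1 without RA replicate 2 (0.17, adjusted p = 0.0749 by edgeR) or 3 (0.16, 0.0545) or TGFβ + RA replicate 1 (0.19, 0.0505), with 7.5e-04 to 0.0749 over the alternatives. Leaving out RA replicate 3 made RA without TGFβ a call (0.23, adjusted p = 0.0195 by edgeR; 0.0195 to 0.296 over the alternatives). B4galt1 is ENSMUSG00000028413 on chromosome 4, 40804602 to 40854005.

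Selplg, the scaffold PSGL-1, had the narrowest range of the 7, with a highest group mean 1.36 times the lowest. It had 1051, 1102 and 1122 CPM in the IL-2 + IL-15 libraries, 1239, 1162 and 1080.3 with RA, 1529, 1439 and 1494 with TGFβ, and 1524, 1481 and 1437 with TGFβ + RA. All 6 libraries with TGFβ lay above the 6 without it, while RA overlapped IL-2 + IL-15 and TGFβ + RA overlapped TGFβ. TGFβ raised Selplg 1.36-fold without RA (0.45 ± 0.06, adjusted p = 3.2e-05 by edgeR) and 1.28-fold with RA (0.35 ± 0.06, adjusted p = 1.4e-04). RA gave 0.09 ± 0.06 without TGFβ (95% interval -0.04 to 0.21) and -0.0063 ± 0.06 with it (-0.13 to 0.12), neither of them called (adjusted p = 0.288 and 0.943 by edgeR). Without RA replicate 3 the former was called (0.15, adjusted p = 0.0362 by edgeR, with 0.0362 to 0.573 over the alternatives). Selplg is ENSMUSG00000048163 on chromosome 5, 113818536 to 113832644.

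The interaction term asked whether the effect of one agent differed with the other present. It called 4 of the 7 genes, where 19.3% of all tested genes were called, 1 higher (6.95% of all genes) and 3 lower (12.3%). Fut7 had -2.05 ± 0.32 (adjusted p = 6.7e-04 by edgeR), so both agents together left 4.13 times less transcript than their separate effects would give when multiplied. St3gal6 had -0.79 ± 0.15 (adjusted p = 0.00277) and B4galt1 -0.54 ± 0.10 (adjusted p = 0.00193). Gcnt1 had 0.74 ± 0.21 (adjusted p = 0.0279), in the other direction. Fut4 (-0.14 ± 0.29), St3gal4 (-0.31 ± 0.18) and Selplg (-0.09 ± 0.08) were not called, at adjusted p of 0.239 to 0.775. The call of Gcnt1 did not survive leaving out IL-2 + IL-15 replicate 1 (0.67, adjusted p = 0.0596 by edgeR) or 3 (0.73, 0.0632), RA replicate 2 (0.65, 0.0843), TGFβ replicate 2 (0.68, 0.0627) or 3 (0.75, 0.0547) or TGFβ + RA replicate 2 (0.64, 0.0701), with 0.00301 to 0.0843 over the alternatives. Without the 3 doubtful libraries the Gcnt1 call was lost too (0.59, adjusted p = 0.0743 by edgeR), while St3gal4 was called (-0.64, 6.5e-04). St3gal4 was also called without RA replicate 3 alone (-0.48, adjusted p = 0.0158 by edgeR, with 6.5e-04 to 0.480 over the alternatives). Without that library the number of called genes over all tested genes went from 2702 to 4158, with the filter run again on the libraries left.

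Around these 7 genes 91 further genes of the pathway were listed: enzymes of the steps before and beside them, donors of the sugars, sulfation, other scaffolds, the selectins and transcription factors reported to act on the enzymes. In all 77 of them passed the filter. RA called 14 higher and 17 lower without TGFβ, where 26.7% of all tested genes were called, and 17 higher and 21 lower with it (43.0%). TGFβ called 20 and 20 without RA (43.1%) and 19 and 27 with it (60.2%). Their medians lay between -0.11 and 0.04 on the log2 scale in these comparisons, and those of all tested genes between -0.0028 and 0.0114. In the counts for each list, RA and TGFβ stand for the agent alone against IL-2 + IL-15, and so do single values unless the other agent is named. Genes not tested included the fucosyltransferases Fut1, Fut2 and Fut9, with 44, 4 and 3 counts over the 12 libraries, and Sele, which encodes E-selectin, with 1.

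Among the 11 enzymes that start O-glycans and build core 1, RA called 1 higher and 2 lower (all genes 12.4% and 14.3%) and TGFβ 1 and 2 (20.7% and 22.4%). Galnt3 fell with RA, from 7.94 ± 2.20 to 3.88 ± 1.41 CPM without TGFβ (-1.03 ± 0.24) and from 7.48 ± 0.689 to 0.97 ± 0.21 with it (-2.94 ± 0.29). Galnt6 was lower with RA (-0.38 ± 0.07) and higher with TGFβ (0.47 ± 0.07), and Galnt7 the reverse (0.24 ± 0.06 and -0.38 ± 0.06). Of 12 tested enzymes of branching and chain extension RA called 2 higher and 4 lower and TGFβ 2 and 1, to be read against the same shares of all genes. Gcnt2, which makes the branches of the I blood group antigen, rose with RA from 13.9 ± 2.49 to 81.6 ± 21.6 CPM (2.56 ± 0.17), and B3gnt7 rose from 0.814 ± 0.142 to 2.19 ± 0.285 CPM (1.42 ± 0.22). B3gnt5, which starts lacto-series glycolipids, fell from 25.5 ± 1.31 to 9.46 ± 2.07 CPM (-1.44 ± 0.14). The highest adjusted p among the changes named here was 0.00626 (edgeR).

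Of 11 other sialyltransferases tested RA called 4 higher and 3 lower (all genes 12.4% and 14.3%) and TGFβ 2 and 4 (20.7% and 22.4%). St3gal1, which caps core 1 and so competes with Gcnt1 for the same chain, fell with RA (-0.63 ± 0.06) and with TGFβ (-1.02 ± 0.06), from 88.0 ± 5.93 CPM in IL-2 + IL-15 to 36.4 ± 1.05 in TGFβ + RA. St8sia4, a polysialyltransferase, fell with TGFβ (-0.54 ± 0.05) and had 0.06 ± 0.05 with RA, which was not called (adjusted p = 0.411 by edgeR). With TGFβ present RA lowered St8sia4 (-0.72 ± 0.05), and the interaction was called (-0.78 ± 0.07, adjusted p = 1.2e-05). St6galnac3 rose with both, from 0.898 ± 0.101 to 6.19 ± 0.242 CPM. Of 10 tested genes of other fucosylation and of GDP-fucose supply RA called 2 higher and 1 lower and TGFβ 4 and 2, beside these same shares. Fut8, which adds the core fucose of N-glycans, fell with RA (-0.56 ± 0.15) and rose with TGFβ (0.73 ± 0.15), while Pofut1, which puts fucose on Notch receptors, rose with RA (0.42 ± 0.06). Slc35c2 rose with RA (0.19 ± 0.06) and fell with TGFβ (-0.60 ± 0.06).

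**Figure D4:**
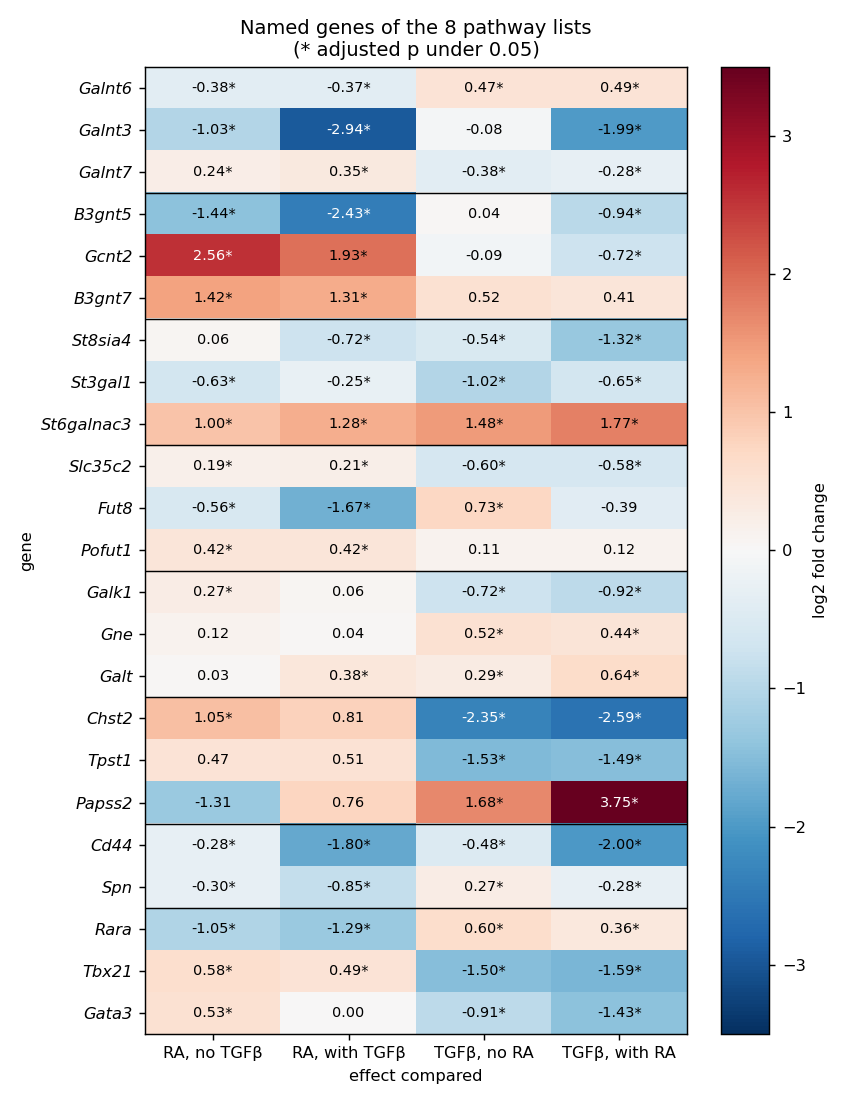
Log2 fold change (colour and printed value) of the 3 genes with the smallest adjusted p of the test over 4 groups in each of 8 pathway lists (rows, lists parted by lines, 1 gene not shown) for the 4 effects (columns), with a star at an adjusted p under 0.05. Galnt3 is at -2.94 and Gcnt2 at 1.93 for RA with TGFβ.

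Of 10 tested genes that supply sialic acid and galactose RA called 2 higher and 0 lower (all genes 12.4% and 14.3%) and TGFβ 3 and 3 (20.7% and 22.4%), and Gne, which makes the first precursor of sialic acid, rose with TGFβ from 53.2 ± 1.49 to 76.3 ± 2.11 CPM (0.52 ± 0.05). Galk1 fell (-0.72 ± 0.07) and Galt rose (0.29 ± 0.08) with TGFβ. Of 7 tested sulfation genes RA called 1 higher and 0 lower and TGFβ 2 and 2, beside the same shares of all genes. Tpst1, one of the enzymes that can sulfate the tyrosines of PSGL-1 needed for P-selectin binding, fell with TGFβ from 5.01 ± 0.986 to 1.73 ± 0.295 CPM (-1.53 ± 0.21). Chst2 fell too (-2.35 ± 0.29), and Papss2 rose (1.68 ± 0.40) from 0.411 ± 0.279 CPM. The highest adjusted p of the TGFβ changes named here was 0.00729 (edgeR).

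Of 7 tested genes of other scaffolds and selectins RA called 0 higher and 5 lower (all genes 12.4% and 14.3%) and TGFβ 2 and 3 (20.7% and 22.4%). Cd44, which can carry E-selectin ligand sugars, had 139 ± 4.60 CPM in IL-2 + IL-15 and 28.7 ± 2.3 in TGFβ + RA (-2.28 ± 0.08). Cd44 fell less with RA alone (-0.28 ± 0.08) or TGFβ alone (-0.48 ± 0.08), and its interaction was called (-1.52 ± 0.11, adjusted p = 2.4e-06 by edgeR). Spn, which encodes the mucin CD43, fell with RA (-0.30 ± 0.06) and rose with TGFβ (0.27 ± 0.06). Of 9 transcription factors RA called 2 higher and 2 lower and TGFβ 4 and 3, beside the same shares. Tbx21, which encodes T-bet, reported to promote Fut7 and Gcnt1 in T cells, rose with RA from 114 ± 14.2 to 171 ± 32.7 CPM (0.58 ± 0.12) and fell with TGFβ to 40.3 ± 2.52 (-1.5 ± 0.12). In TGFβ + RA against RA it fell (-1.59 ± 0.12). Gata3 rose with RA (0.53 ± 0.09) and fell with TGFβ (-0.91 ± 0.09), while RA with TGFβ present gave Gata3 0.0026 ± 0.10 (adjusted p = 0.986), with a called interaction (-0.53 ± 0.13, adjusted p = 0.0138). Rara, a retinoic acid receptor gene, fell with RA (-1.05 ± 0.07) and rose with TGFβ (0.60 ± 0.07). Every rise or fall named here was called, with 0.0162 as the highest adjusted p (edgeR), that of Cd44 for RA alone.

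The genes whose pattern over the 12 libraries was most like that of each member were taken by Pearson's r of log2 CPM among genes averaging 5 CPM or more, predicted gene models left out. Such an r mostly follows the 4 groups, since the libraries of a group share their culture. For Fut7 they were Stac2 (r = 0.997), Fanci (0.994) and Fam129b (0.993). Stac2 had mean levels of 31.5 CPM without added agents, 0.577 with RA, 43.7 with TGFβ and 0.181 with both, the same order as Fut7, and Fam129b had 18, 1.30, 23.6 and 0.345. Fanci followed the same order over a narrower range, from 23.6 to 8.39 CPM. For Gcnt1 they were Diap2 (0.992), Pbxip1 (0.991) and Gna12 (0.989), of which Gna12 went from 17.4 CPM in IL-2 + IL-15 to 81.1 in TGFβ + RA. For Selplg they were Cotl1, Abl1 and Ppp1r16b (0.977 to 0.989), and for B4galt1 Gpr55, Slc30a4 and Fndc3a (0.967 to 0.970). St3gal4 was followed most closely by Idh3a, Ran and Rbbp4 (0.972 to 0.977), Fut4 by Dbf4, Oip5 and Mis12 (0.946 to 0.962), and St3gal6 by Mina, Pcyox1 and Glis2 (0.943 to 0.952). None of the 7 had another member among its 3 closest genes.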

How the data were processed

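RNA was sequenced from CD8 T cells of 4 culture groups with 3 libraries each, grouped by the treatment in their labels, and 0 columns of samples were left unused. The authors deposited raw counts for each gene, made with STAR and featureCounts on GRCm38, per the submitters' processing notes; versions, annotation release and strand setting are not given in the sources used here.

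Counts were filtered with filterByExpr (minimum count 10) and scaled by TMM in edgeR 4.0.16 (R 4.3.3). A quasi-likelihood fit of group means (8 residual degrees of freedom) gave 5 contrasts, the interaction and a test over 4 groups. Each SE is the size of the log2 change divided by the root of F, and can understate the error at few counts. The script was tested on simulated data. TPM used merged exon lengths of GENCODE M21, found for 98.0% of identifiers. The members and lists were chosen with earlier results of these data known. Named are the 7 members, in each list the 3 called genes averaging at least 1 CPM that had the lowest adjusted p over 4 groups, and for each member the 3 genes most alike over 12 libraries. One gene that this rule names is not reported here. DESeq2 1.42.0 size factors and Wald test, no filter, a replicate block, 2 groups per fit, 9 libraries and leaving out each library were the alternatives. Same-numbered libraries of IL-2 + IL-15 and RA deviated together (correlations of 0.341, 0.130 and 0.271), which no label explains; the replicate block left the calls of the 7 genes in that comparison as they were.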

Additional observations from a re-analysis of the deposited data

Results flagged for a closer look

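The effect of TGFβ differed with RA, by edgeR's interaction term with Benjamini-Hochberg adjustment, for 4 of the 7 selectin ligand genes. For Fut7 the difference was -2.05 on the log2 scale: TGFβ gave 0.39 without RA and -1.66 with it. For St3gal6 it was -0.79, with -0.0020 without RA and -0.79 with it. For B4galt1 it was -0.54, with 0.77 without and 0.23 with RA. For Gcnt1 it was 0.74, with 1.84 without and 2.58 with RA, and this call was lost in 6 of the 12 fits that left out 1 library. The Gcnt1 call was also lost without the 3 doubtful libraries (0.59, adjusted p = 0.0743 by edgeR).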

How the results depend on the processing

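The number of the 7 genes called stayed within 1.5 times its value under every alternative run. Leaving out each library gave 2 to 4 for RA, 5 to 5 for TGFβ, 4 to 5 for RA with TGFβ, 5 to 7 for TGFβ with RA, 6 to 7 for both agents and 3 to 5 for the interaction. Of the single values, 697 kept their direction and call, 24 lost a call, 9 gained one and 19 turned in sign. Values near 0 turned. Without 3 doubtful libraries (IL-2 + IL-15 replicate 1, RA replicate 3 and TGFβ + RA replicate 3) these were Gcnt1 (0.16) and St3gal4 (0.22, the one of them that was called) for RA, St3gal6 for TGFβ (0.14) and Selplg for RA with TGFβ (0.0094). St3gal6 for TGFβ also turned with DESeq2 size factors (0.0028), no filter (0.0041), the Wald test of DESeq2 (0.0027), only the 6 samples (0.0030) and the replicate block (0.0030). Leaving out 1 library gave -0.25 to 0.11 for Gcnt1 and -0.18 to 0.11 for St3gal4 with RA, -0.10 to 0.14 for St3gal6 with TGFβ, -0.029 to 0.016 for Selplg for RA with TGFβ and -0.37 to 0.027 for Fut4 in the interaction; the cause was not tested. Of all tested genes the interaction called 2702, and 4224 without the 3 libraries or 4158 without RA replicate 3, each with the filter run again.

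Whether equal replicate numbers mark a shared animal or day is not given in the labels. All 3 same-numbered pairs of IL-2 + IL-15 and RA had a correlation of deviations over 0.1 (0.341, 0.130 and 0.271), and in each of the other pairings of groups at least 1 pair did not, with 10 of 18 pairs over 0.1 in all. Of 12 libraries 11 correlated best with one of their own number, a hint from the data and not from the design. The replicate block called 3, 6, 5, 7, 6 and 4 of the 7 genes in the same order, where the fit without it called 3, 5, 5, 7, 6 and 4; it added Fut4 for TGFβ (-0.43, adjusted p = 0.00788 by edgeR) and changed no other call of the 7 genes.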
